A study of Drosophila melanogaster with 10 samples.

Results

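Su(Hw)-only regions are the places in the Kc167 genome where a Su(Hw) peak stood by itself, with no peak of Mod(mdg4)2.2, CP190, Shep or Rump on it. They were found by joining all peaks of the 5 lists that overlapped by at least 1 bp and keeping the joined regions with a Su(Hw) peak and no peak of the other 4 lists, which will be called the partner lists. This gave 615 of 5224 regions, which is 11.8% of all regions and 26.0% of the 2363 regions that hold Su(Hw) (Wilson 95% interval 24.3 to 27.8). The members were chosen by the positions of the listed peaks in all 5 lists, so that these shares follow from the choice and are given as a description. Each of the 615 regions holds exactly 1 Su(Hw) peak, so that region and peak are the same thing here. The other 1748 Su(Hw) regions, with at least 1 partner list, served as the comparison.

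Su(Hw) is a zinc-finger protein that binds DNA directly and is best known for the gypsy chromatin insulator of Drosophila, which blocks the action of an enhancer on a promoter when it lies between them. At that insulator, Su(Hw) brings in Mod(mdg4)2.2 and CP190, which both carry a BTB domain and do not by themselves recognise the gypsy sequence. Su(Hw) also has roles outside the insulator, among them the repression of neuronal genes in the female germline, and Su(Hw) sites that lack the other insulator proteins are known from other work in this insect. Rump and Shep are RNA-binding proteins that counteract the gypsy insulator in certain tissues.

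All libraries came from Kc167 cells, an established Drosophila melanogaster line of embryonic origin, kept at 25 °C, and no treatment is named. Su(Hw) was precipitated with 1 rabbit antibody from the first of 2 chromatin preparations, and its list therefore rests on 1 library. The Mod(mdg4)2.2, Shep and Rump lists combine 2 antibodies each on that same preparation. CP190 was precipitated with 1 rabbit antibody from the second preparation, so that for CP190 the factor and the preparation cannot be told apart. The lists hold 2369 peaks for Su(Hw), 2678 for Mod(mdg4)2.2, 2742 for CP190, 1443 for Shep and 338 for Rump. No list has a replicate and the read depth is unknown, so that the intervals cover counting error only and the tests compare regions within these lists, not independent cultures. The tests also count each region as independent, which neighbouring regions need not be. The intervals may therefore be too narrow and the p-values too small. A region without a partner is a place where no partner peak was listed, and a weaker signal under the threshold of a partner list cannot be told apart from no signal.

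The regions lay on every arm, and their share differed from that of the other Su(Hw) regions, past the threshold, outside the assembled arms and on 3L. The 615 regions were divided into 172 on 3R, 131 on X, 121 on 2L, 86 on 2R, 83 on 3L, 1 on chromosome 4 and 21 on sequence outside these arms. Read the other way, the share of Su(Hw) regions that stood alone was 29.7% on 2L (25.5 to 34.3), 27.9% on X (24.1 to 32.2), 27.3% on 3R (24.0 to 31.0), 21.9% on 2R (18.1 to 26.3) and 19.7% on 3L (16.2 to 23.8). The arms 2L, X and 3R thus had nearly the same share, and 3L had the lowest of these 5. On the fourth chromosome, 1 of 8 Su(Hw) regions stood alone.

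**Figure D1:**
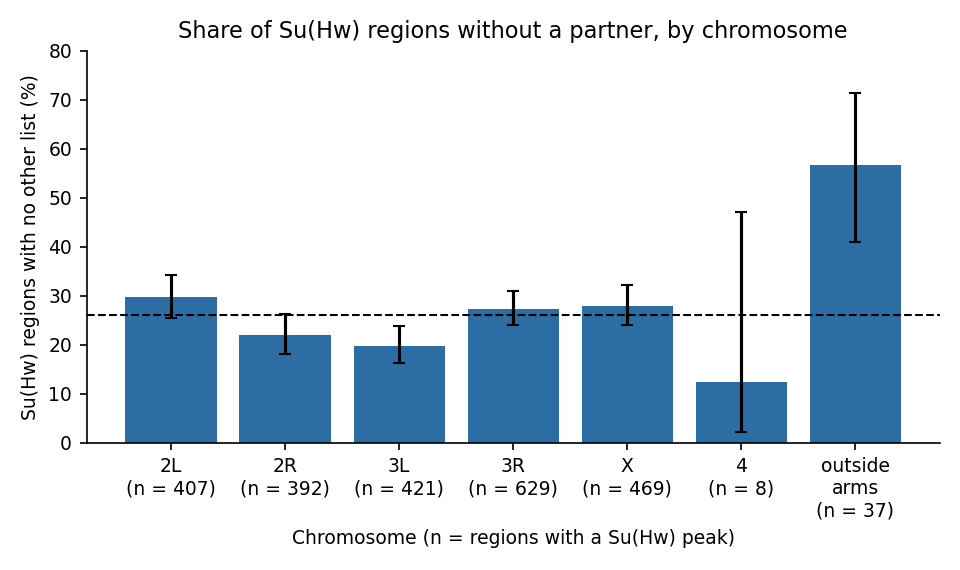
Share of Su(Hw) regions that hold no peak of the other 4 lists (y axis, percent) on each chromosome and outside the arms, with Wilson 95% intervals as bars and the number of Su(Hw) regions under each column. The dashed line is the share over all chromosomes, 26.0%, and the column outside the arms stands at 56.8%.

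The Su(Hw)-only set held 3L regions less often than the rest of the Su(Hw) regions. There were 83 of 615 on 3L (13.5%, 11.0 to 16.4) against 338 of 1748 (19.3%, 17.6 to 21.3), an odds ratio of 0.651 with an interval of 0.502 to 0.844 (adjusted p = 0.00428, Fisher's exact test, two-sided, adjusted by Benjamini-Hochberg over 9 tests). On 2R the shares were 14.0% and 17.5% (odds ratio 0.766; exact test, adjusted p = 0.0789). On 2L they were 19.7% and 16.4% (odds ratio 1.25; exact test, adjusted p = 0.0942), and neither arm passed the threshold of 0.05. Under other settings 2L passed with peaks up to 1000 bp apart joined (odds ratio 1.36; exact test, adjusted p = 0.0259). The odds ratio for 2R passed with the top 50% of the lists that have a score (0.691; exact test, adjusted p = 0.00511) and without the Mod(mdg4)2.2 list (0.727; exact test, adjusted p = 0.0140). X held 21.3% of Su(Hw)-only regions and 19.3% of the others, with an odds ratio of 1.13 (0.900 to 1.42) and an adjusted p of 0.374. By the same exact test the odds ratios were 1.097 for 3R (adjusted p = 0.446) and 0.405 for chromosome 4 (adjusted p = 0.689). For X a difference was not detectable with this number of regions, and the interval reaches from slightly lower to 1.42 times the odds.

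Within the arms the share was uneven from place to place. Each of the 5 large arms was divided into 5 equal stretches from the centromere outward, a division chosen after the data had been seen. Over all 5 arms, 25.5% of Su(Hw) regions stood alone in the stretch next to the centromere and 18.2% (14.8 to 22.1) in the stretch at the tip, with 28.1%, 28.5% and 26.5% between them. On 2L the share was highest beside the centromere, with 33 of 83 regions (39.8%, 29.9 to 50.5), and it was 18.6% at the tip. On 2R and 3L the stretch beside the centromere had the lowest share of the arm, with 4 of 40 (10.0%, 3.96 to 23.1) and 7 of 60 regions (11.7%, 5.77 to 22.2). The highest share on 3L, 39.1% (28.5 to 50.9), was in its middle stretch. These values were not tested.

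Outside the assembled arms, on the heterochromatic scaffolds (Het) and the unplaced sequence (U) of build dm3, Su(Hw) stood alone more often than on the arms. Of 37 Su(Hw) regions there, 21 (56.8%, 40.9 to 71.3) had no partner, against 594 of 2326 on the arms (25.5%, 23.8 to 27.3). Counted from the sets, 3.41% of Su(Hw)-only regions (2.24 to 5.16) and 0.915% of the others (0.564 to 1.48) lay there, with an odds ratio of 3.83, an interval of 1.98 to 7.38 and an adjusted p of 0.000687 by Fisher's exact test. By sequence, 8 of 13 Su(Hw) regions on U, 7 of 12 on 3LHet, 4 of 6 on 3RHet and 2 of 4 on 2RHet stood alone. Neither of the 2 on M did. On each of these sequences with members, at least as many Su(Hw) regions stood alone as had a partner.

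Mod(mdg4)2.2, CP190 and Shep peaks were also scarcer relative to Su(Hw) outside the arms, and Rump peaks were more frequent. There were 22 Mod(mdg4)2.2 peaks and 5 CP190 peaks for 37 Su(Hw) peaks outside the arms, that is 0.595 and 0.135 per Su(Hw) peak, against 1.14 and 1.17 on the arms. Shep had 0.135 peaks per Su(Hw) peak outside the arms and 0.617 on them, and Rump had 1.22 and 0.126. The part of these densities in the result was not tested. Among regions whose Su(Hw) peak was 1800 to 2200 bp wide, a limit picked after widths were known, 9 of 401 Su(Hw)-only and 7 of 917 other regions lay outside the arms, and the odds ratio of 2.98 did not pass (Fisher's exact test, adjusted p = 0.0907). Without U the odds ratio was 3.45 (adjusted p = 0.0104, Fisher's exact test), and without the Rump list, of whose 338 peaks 45 lay outside the arms, it was 6.89 (adjusted p = 1.85e-07, Fisher's exact test). The latter rise follows from the rule and is no separate evidence. The 5 regions with Rump as the only partner, all outside the arms, then become members. The odds ratio was higher still with the top 50% of every list, at 15.1 from 19 of 297 and 4 of 888 regions. For Su(Hw) and CP190 that top is taken by width, and 33.3% of members outside the arms were over 2500 bp wide, against 8.25% on the arms. The part of width in this value was not tested. With the top 50% of the lists that have a score, the odds ratio was 6.11.

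By their coordinates, the members outside the arms were far from other peaks. Their median distance to the nearest peak of any partner list was 120459 bp, with a range of 6505 to 684826 bp, against a median of 9536 bp for the 594 members on the arms. Of the members outside the arms, 8 lay on U. As that sequence is unplaced, distances on it are between coordinates and need not be distances in the genome. Su(Hw) regions of either kind were sparse on U and the Het scaffolds, at 1.25 to 4.71 per Mb up to the last listed peak. On the 5 large arms there were 17.4 to 22.6 per Mb. Several members outside the arms were also wide. Of these 21 members, 7 were over 2500 bp wide (33.3%), against 49 of 594 on the arms (8.25%). On 3LHet, 3 members stood close together at chr3LHet:2396769-2398757, chr3LHet:2407801-2411078 and chr3LHet:2421564-2424300, with 9043 and 10485 bp between them and with the nearest partner peak at 115846 bp or more from each. On 3RHet, a member of 3186 bp at chr3RHet:590225-593410 and another of 4840 bp at chr3RHet:598171-603010 lay 4760 bp apart. For comparison, Mod(mdg4)2.2-only regions lay outside the arms in 5 of 298 cases, CP190-only regions in 2 of 1003, Shep-only regions in 5 of 812 and Rump-only regions in 31 of 47.

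The width of a peak is the only value that the Su(Hw) list gives besides its position. Su(Hw)-only peaks were narrower than Su(Hw) peaks with a partner, with a median of 2005 bp (quartiles 1912.5 and 2096.5) against 2147 bp (quartiles 2031 and 2374.75). A wider peak meets other peaks more easily by its width alone, so that this difference is tied to the rule and was not tested. The share of Su(Hw) peaks alone was 47.3% (41.0 to 53.6) in the decile of the list with the narrowest peaks and 49.4% (43.1 to 55.7) in the next. It was 25.3% at 2059 to 2106 bp and 9.21% (6.16 to 13.5) at 2161 to 2246 bp. In the widest decile, from 2845 bp upward, it was 15.6% (11.5 to 20.8), so that the share did not go steadily down with width.

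**Figure D2:**
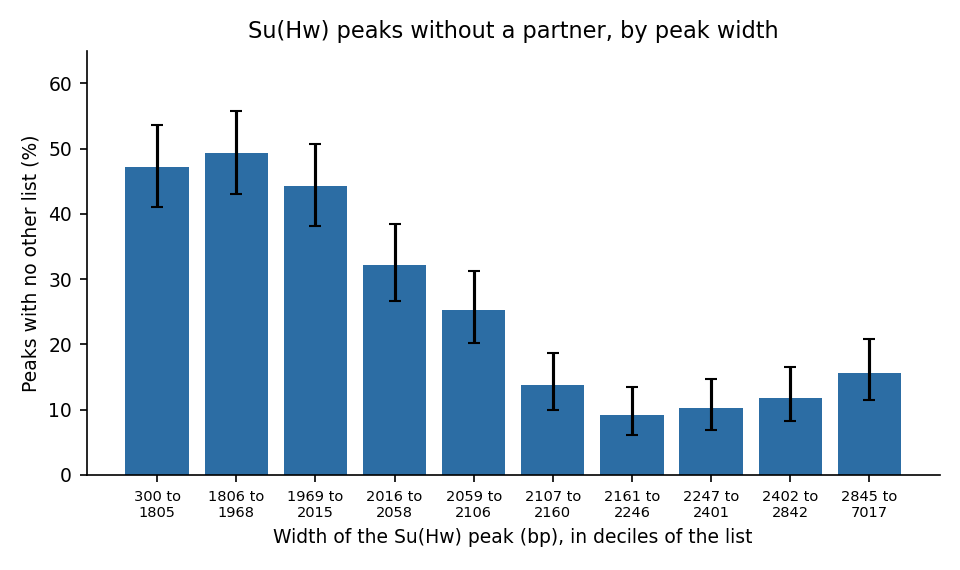
Share of Su(Hw) peaks without any partner list (y axis, percent) in deciles of the Su(Hw) list by peak width in bp (x axis), with Wilson 95% intervals as bars. Columns are between 44.4 and 49.4% for peaks up to 2015 bp and between 9.21 and 15.6% for peaks of 2107 bp and more.

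A small class of Su(Hw) peaks was exactly 300 bp wide, with none narrower and the next width at 1000 bp. Of these 51 peaks, 30 (58.8%, 45.2 to 71.2) stood alone, which makes them 30 of the 615 members. They lay on 3R in 11 cases, on 2R in 7 and on 2L, 3L and X in 4 each, and their median distance to a partner peak was 5817 bp. Without them 585 members were left, the calls for 3L and for sequence outside the arms held, and that for 2R passed the threshold (Fisher's exact test, odds ratio 0.731, adjusted p = 0.0371).

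By partner, the width of the Su(Hw) peak differed in steps. The median was 2005 bp for Su(Hw) alone, 2002.5 bp in 90 regions with CP190 as the only partner and 1857 bp in 35 regions with Shep as the only partner. It was 2110.5 bp in 486 regions with Mod(mdg4)2.2 as the only partner, 2144.5 bp in 765 regions with Mod(mdg4)2.2 and CP190 and 2293 bp in 232 regions that also held Rump, with or without Shep. It was 2327 bp in the 5 regions with Rump as the only partner. By these medians the Su(Hw)-only peaks were closest to Su(Hw) peaks with CP190 as the only partner. The widest member was the 6684 bp peak at chr3L:8929040-8935723, which lay 22430 bp from a CP190 peak. Next came chr3RHet:598171-603010 with 4840 bp, chr2L:14885455-14889997 with 4543 bp, chr2R:10326775-10330653 with 3879 bp and chr2L:19809832-19813654 with 3823 bp. On the 3 of these that lie on 2L and 2R, CP190 was the nearest partner list, at 32378, 3804 and 2609 bp.

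Most members lay several kilobases from the partner lists. The median distance from the edge of a member to the nearest partner peak was 10251 bp, with quartiles of 4100.5 and 21816.5 bp. It was 6814.5 bp with all peaks resized to 300 bp and 17243 bp with the top 50% of every list. Only 4 of 615 members had a partner peak within 100 bp, 22 (3.58%) within 500 bp, 49 (7.97%) within 1 kb and 175 (28.5%) within 5 kb. At the other end, 568 (92.4%) had one within 50 kb. These distances are above 0 by the rule, so that they were not tested.

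**Figure D3:**
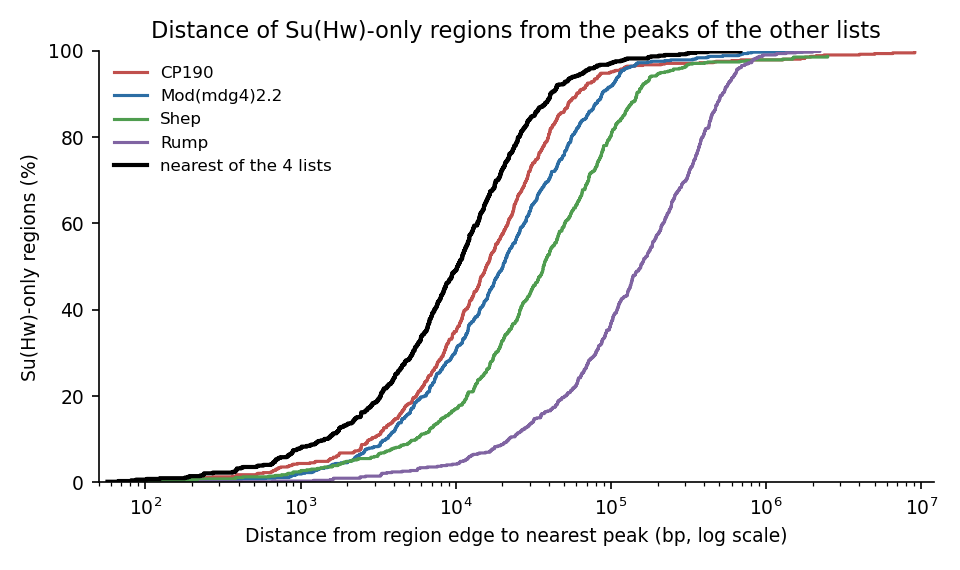
Cumulative share of the 615 Su(Hw)-only regions (y axis, percent) by distance from the region's edge to the nearest peak (x axis, bp, log scale), for each partner list and for the nearest of the 4 lists. The line for the nearest list crosses 50% near 10251 bp, and the single lists follow in the order CP190, Mod(mdg4)2.2, Shep and Rump.

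CP190 was the nearest partner list for 355 of the 615 members (57.7%), Shep for 125, Mod(mdg4)2.2 for 122 and Rump for 13. The median distance was 15682 bp to CP190, 20209 bp to Mod(mdg4)2.2, 36471 bp to Shep and 155703 bp to Rump, over the 613, 615, 607 and 615 members whose chromosome or scaffold held a peak of that list. The lists differ in size and in peak width, which bears on this order. CP190 and Mod(mdg4)2.2 have lists of nearly equal length, 2742 and 2678 peaks, but CP190 peaks have a median width of 2025 bp and Mod(mdg4)2.2 peaks of 304 bp.

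The nearest partner peaks were then compared with their own lists, as a description with no test. The nearest CP190 peak was in a region with Su(Hw) for 44.2% of members, against 43.1% of all CP190 peaks. For Mod(mdg4)2.2 the shares were 64.6% and 69.2%, for Shep 14.8% and 13.1%, and for Rump 85.4% and 79.0%. The first share of each list counts members and the second counts peaks. A peak nearest to several members thus counts more than once in the first. Among members whose nearest peak of a list lay within 5 kb, the share was 54.5% for CP190 (61 of 112) and 64.3% for Mod(mdg4)2.2. It was 19.6% for Shep (11 of 56), and for Rump it was 12 of 16. For 98 members the nearest Mod(mdg4)2.2 peak lay within 5 kb. These were 96 different peaks, and their median score was 93.4 against 99.0 in the whole list. This score is the authors' own signal value for a peak. The 54 such Shep peaks had a median score of 108.0 against 107.9 in the list, and the 16 Rump peaks 22.4 against 24.6. In these 3 lists the median score close to members was thus near that of the list, and CP190 peaks have no score.

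At the edge of the rule, the members nearest to a partner were chrX:12438855-12440901, 57 bp from a Mod(mdg4)2.2 peak, chr2L:493656-495459, 67 bp from Shep, chrX:3177210-3179280, 81 bp from Mod(mdg4)2.2, chr3L:2551456-2553471, 87 bp from CP190, and chr3R:17422321-17422620, 102 bp from Shep. Just outside the rule, the Su(Hw) peak at chrX:5611976-5612275 shared 6 bases with a Shep peak, and chr3R:25113502-25115550, chr3R:4303500-4305352 and chrX:3637473-3639465 shared 7, 28 and 33 bases with Shep. The fifth, chrX:7186356-7187922, shared 51 bases with CP190. Of the 1754 Su(Hw) peaks that met a partner, 6 did so by 100 bases or less. The number of members was 638 when an overlap of at least 50% of the shorter peak was required. It was 842 with all peaks resized to 300 bp, so that membership does depend on the peak widths in the lists.

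By coordinates, which on U are those of unplaced sequence, the most remote member was chrU:542933-544996, 684826 bp from the nearest partner peak, one of Mod(mdg4)2.2. It was followed by chr2L:22956512-22958155 at 420046 bp, chr2RHet:2275160-2277234 at 352389 bp, chrU:3086766-3088797 at 317478 bp and chr3LHet:605220-608849 at 305607 bp. Of these 5, only the second lies on an assembled arm, and it is the last peak of any list on 2L.

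Su(Hw)-only regions had another Su(Hw) region close by less often than the partnered regions as a whole, but not less often than every kind of partnered region. Of the 615, 229 (37.2%, 33.5 to 41.1) had another Su(Hw) region, of either kind, within 10 kb, against 765 of 1748 (43.8%, 41.5 to 46.1). The odds ratio was 0.762, with an interval of 0.631 to 0.921 (Fisher's exact test, adjusted p = 0.0114). Regions close to each other count mutually here, so that these counts are not independent. The median distance to the next Su(Hw) region was 14861 bp for Su(Hw)-only regions and 12059 bp for the others. The gap had the same direction at 5 kb (21.1% against 27.6%), 20 kb (57.7% against 64.0%) and 50 kb (83.7% against 87.6%), each past the threshold (adjusted p = 0.00358, 0.0131 and 0.0358, Fisher's exact test). By the same exact test the call was lost without chromosome 2L (odds ratio 0.831, adjusted p = 0.166) and with peaks up to 500 bp apart joined (0.803, adjusted p = 0.0504). It was also lost with the top 50% of every list, by score or, for Su(Hw) and CP190, by width (exact test, 0.817, adjusted p = 0.324).

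When Su(Hw) regions were read in order along each chromosome and taken in pairs without overlap, the neighbour of a Su(Hw)-only region was more often Su(Hw)-only itself. Of 1179 such pairs, 307 began with a Su(Hw)-only region, and in 101 of these (32.9%, 27.9 to 38.3) the second was Su(Hw)-only as well. Of the 872 pairs that began with a partnered region, 204 (23.4%, 20.7 to 26.3) had a Su(Hw)-only second. The odds ratio was 1.61, with an interval of 1.21 to 2.14 (Fisher's exact test, adjusted p = 0.00428). The value was 1.80 with the pairs shifted by 1 region, 1.76 with pairs at most 50 kb apart and 1.60 on the 5 large arms alone, each past the threshold. In Fisher's exact test it missed the threshold with the top 50% of the lists that have a score (1.30, adjusted p = 0.0633), with the top 50% of every list (1.44, adjusted p = 0.225) and without the Mod(mdg4)2.2 list (1.13, adjusted p = 0.360). There was no difference to be seen among the 382 pairs in which both Su(Hw) regions had peaks of 1800 to 2200 bp, the same width limit (Fisher's exact test, odds ratio 0.987, 0.614 to 1.59, adjusted p = 1). Within that width the shares were 29.7% of 118 pairs and 29.9% of 264 pairs.

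**Figure D4:**
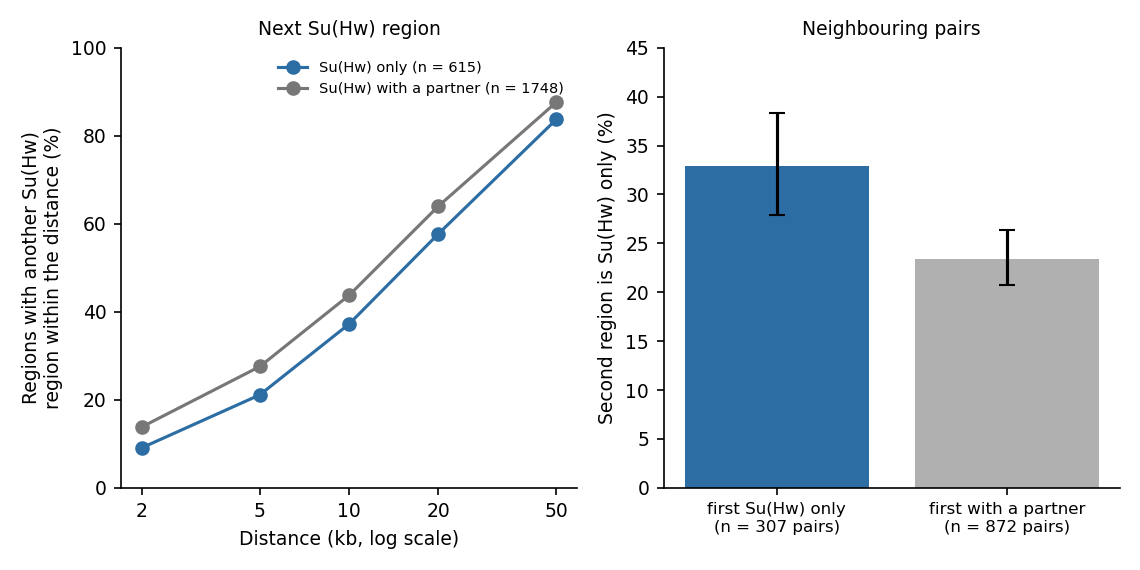
Left, share of Su(Hw) regions with another Su(Hw) region within 2, 5, 10, 20 and 50 kb (y axis, percent; x axis, kb, log scale) for 615 Su(Hw)-only regions and 1748 with a partner. Right, share of neighbouring pairs whose second region is Su(Hw)-only, by the kind of the first, 32.9% against 23.4%, with Wilson 95% intervals.

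Runs of Su(Hw)-only regions, in which no partnered Su(Hw) region intervened, numbered 407. Of these, 276 were single regions, 83 held 2 members, 29 held 3, 13 held 4 and 6 held 5 or more. The longest had 7 members over 118.4 kb at chrX:12516293-12634668. Its first 6 members fill the richest window of 100 kb, chrX:12500001-12600000, in which all 6 Su(Hw) regions stood alone. Their widths ran from 1250 to 3169 bp and their distances to a partner peak from 4710 to 26395 bp, with CP190, Mod(mdg4)2.2 or Shep as the nearest list. In this stretch Su(Hw) peaks were thus close together, with partner peaks some kilobases away and none on them.

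The next runs in length were both on 2L, with 6 members each, at chr2L:14796572-15039859 (243.3 kb) and chr2L:19547046-19682079 (135.0 kb). All 6 members of the first had CP190 as the nearest list, at 11507 to 52297 bp. In the second, the distance ran from 2460 bp to 58938 bp, with Mod(mdg4)2.2 nearest to 1 member and CP190 to the other 5. After the window on X, 6 windows of 100 kb held 4 members each, of which the first in order were chr2L:15000001-15100000, with 4 of 6 Su(Hw) regions alone, and chr2R:10600001-10700000, with 4 of 4. Most windows with any member, 338 of 458, held a single one.

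The comparison was repeated against partnered regions with and without Mod(mdg4)2.2, a division chosen after the data had been seen. Against the 1602 Su(Hw) regions with Mod(mdg4)2.2, the odds ratios were 5.11 for sequence outside the arms, 0.635 for 3L, 0.729 for another Su(Hw) region within 10 kb and 1.88 for a Su(Hw)-only neighbour, and each passed (Fisher's exact test, highest adjusted p = 0.00251). Against the 146 regions that held CP190, Shep or Rump but not Mod(mdg4)2.2, the same values were 0.997, 0.879, 1.29 and 1.07, and none passed (Fisher's exact test, lowest adjusted p = 0.960). Of the regions in the main comparison set, 1602 of 1748 thus held Mod(mdg4)2.2, and whether these outcomes differ between the sets was not tested. The 0.997 rests on 5 regions outside the arms, which are the 5 with Rump as the only partner, while none of the 90 regions with CP190 alone or the 35 with Shep alone lay there. With 146 regions the second comparison is imprecise, and its interval for 3L ran from 0.529 to 1.46. For the neighbour values only pairs with both regions in the compared sets were kept, so that 1.88 and 1.07 rest on different pairs. These were 1041 pairs with Mod(mdg4)2.2 and 164 without. Among the 164, the second region was Su(Hw)-only in 79.5% of 127 pairs and 78.4% of 37 pairs, and the interval ran from 0.439 to 2.62.

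**Figure D5:**
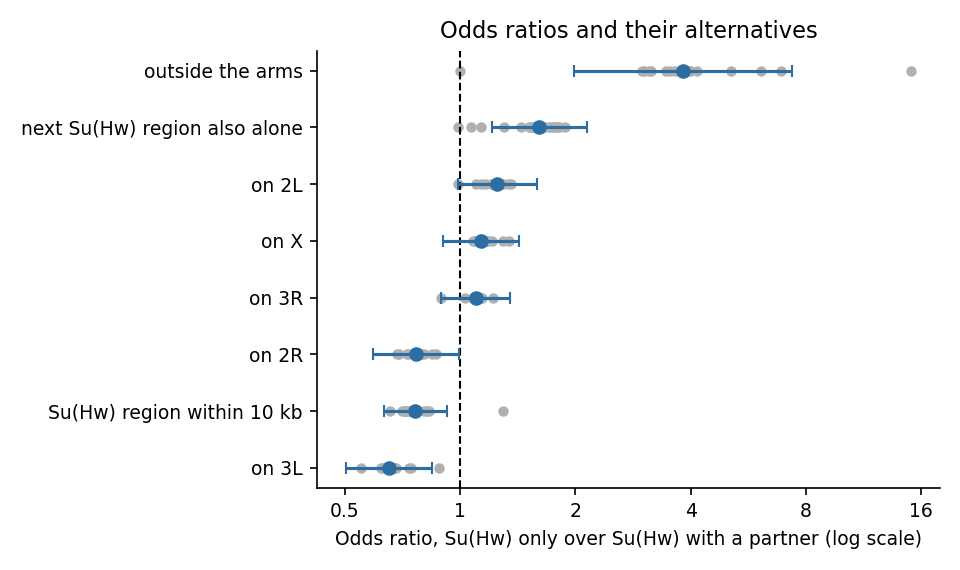
Odds ratios of Su(Hw)-only over partnered Su(Hw) regions (x axis, log scale) for 8 of the 9 tests, with the value reported and its 95% interval in blue and each alternative as a grey point. Chromosome 4 is left out for its 8 regions, and the dashed line marks an odds ratio of 1.

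Genes, sequence motifs and other annotation at these regions were not analysed here, and the regions are named by their dm3 coordinates.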

How the data were processed

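Peak lists of 5 factors in Kc167 cells were analysed, 1 list per factor, with 10 libraries behind them of which 2 are inputs. Per the submitters' processing notes, the build is dm3 and the tools were Bowtie 0.12.8, Picard 1.77, bedtools 2.17.0, cutadapt 1.1 and Trimmomatic 0.20. What is not given in the sources here is how peaks were called and filtered, how reads with several positions were handled, how 2 libraries were combined and how deep they were read. The Mod(mdg4)2.2, Shep and Rump lists follow the narrowPeak layout, in which the authors deposited a signal value per peak (called the score) and the −log10 of a q-value. The authors deposited only positions for Su(Hw) and CP190. Starts are printed counted from 1.

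Peaks were joined and the 9 tests were run in Python 3.11.15 with NumPy 2.4.6, SciPy 1.17.1 and pandas 2.3.3 (figures with matplotlib 3.10.9). Odds ratios carry Woolf 95% intervals, with 0.5 added to each count where 1 of them was 0. Distances are the bases between edges. The joining and the tests were tested on simulated data. Regions were named by rank: the 5 widest, the 5 farthest from and the 5 nearest to a partner, the 5 peaks just outside the rule, and the 3 richest windows of 100 kb and longest runs. Further members outside the arms were named after their values had been seen. The members and measures were chosen with earlier results of these data known. Alternatives were other joining rules, peak widths, list thresholds, lists left out and chromosomes left out. The inputs were not used here.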

Additional observations from a re-analysis of the deposited data

How the results depend on the processing

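The count of 615 Su(Hw)-only regions moved beyond 1.5 times in 3 of 15 alternatives. It was 1101 of 2363 Su(Hw) regions (46.6%) without the Mod(mdg4)2.2 list, against 26.0% in the main setting. With the top 50% of every list it was 297 of 1185 (25.1%), and 144 of the original members were still among the 297. With Su(Hw) peaks of 1800 to 2200 bp only it was 401 of 1318 (30.4%). In these last settings the number of Su(Hw) regions was itself lower, and the share alone moved less than the count. Within the limit of 1.5 times, the count still rose to 842 of 2369 (35.5%) with all peaks resized to 300 bp. It rose to 895 of 2363 (37.9%) with the top 50% of the lists with a score. The odds ratio outside the arms was 2.98 with Su(Hw) peaks of 1800 to 2200 bp, where its call was lost, and 0.997 against partnered regions without Mod(mdg4)2.2, and it kept its call in the other 14 alternatives, at up to 15.1 with the top 50% of every list. That for another Su(Hw) region within 10 kb lost its call with peaks up to 500 bp apart joined (0.803), with the top 50% of every list (0.817) and without chromosome 2L (0.831), and was 1.29 against partnered regions without Mod(mdg4)2.2. That for a Su(Hw)-only neighbour lost its call with the top 50% of the lists with a score (1.30), with the top 50% of every list (1.44), without the Mod(mdg4)2.2 list (1.13) and against partnered regions without Mod(mdg4)2.2 (1.07), and was 0.987 with Su(Hw) peaks of 1800 to 2200 bp. The odds ratio for 3L lost its call only against partnered regions without Mod(mdg4)2.2 (0.879) and kept it in the other 16 alternatives. That for X stayed between 1.08 and 1.34 and never passed the threshold. Among the other arms, 3R was 0.890 with the top 50% of every list, and 2L and chromosome 4 were 0.989 and 2.29 with Su(Hw) peaks of 1800 to 2200 bp, none past the threshold, while 2L passed with peaks up to 1000 bp apart joined (1.36) and 2R with the top 50% of the lists with a score (0.691), without the Mod(mdg4)2.2 list (0.727) and without Su(Hw) peaks of 300 bp (0.731). The median distance to a partner peak moved beyond its interval in 6 of 15 alternatives, between 6814.5 bp with peaks resized to 300 bp and 17243 bp with the top 50% of every list. The cause of these changes was not tested, and some of the settings also hold fewer regions. No paired analysis was possible because each factor has a single list, so that no replicate could be left out or matched. Read depth is unknown, and which Su(Hw)-only regions carry a partner signal under its list's threshold cannot be seen here.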
